A study of Solanum lycopersicum with 84 samples.

Results

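The nitrate transporter genes described here are 4 of the 34075 genes in the count table of a tomato study of nitrogen supply. They were taken as a fixed set of identifiers that the study singled out, *Solyc08g007430.2*, *Solyc05g006990.3*, *Solyc11g042820.2* and *Solyc06g074990.3*, over all 12 RNA libraries. No measured value was used here to pick them, but they were chosen with earlier results of these data known. The set is thus not free of selection on the response to nitrate. Of the 4 genes, 3 carry names of the NRT1/PTR family (NPF). *Solyc08g007430.2* is annotated as NIT2 with Arabidopsis NRT1.1 (NPF6.3) as its closest match, and *Solyc05g006990.3* is matched to Arabidopsis NRT1.2 (NPF4.6). *Solyc11g042820.2* is called NPF4.4 only from a label in a drawing of the study, and the tables used here gave no annotation of it. *Solyc06g074990.3* goes against the NPF grouping, because it is annotated as a putative high-affinity nitrate transporter 2 and matched to Arabidopsis NRT2.1. It is therefore called an NRT2 gene below. The identifiers place the genes on chromosomes 8, 5, 11 and 6 in the order given.

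Seedlings of the tomato cultivar M82 were grown in hydroponic culture and starved of nitrogen for 4 days. They then received either medium with nitrate (+N) or nitrogen-free medium with chloride in place of nitrate (−N), and shoots and roots were harvested after 6 h. The groups, with 3 libraries each, were shoots +N, shoots −N, roots +N and roots −N, so every plant had been starved and −N is continued starvation, not normal growth. Each library was made from tissue pooled from several plants, and the table held 17472760 to 21901432 counted reads per library, so levels are given as CPM, the reads of a gene relative to the size of its library, scaled over the 12 libraries. A whole organ was measured, so a difference in the share of a cell type and a difference in RNA per cell cannot be told apart.

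NPF proteins are membrane carriers coupled to the proton gradient, and single members move nitrate, peptides, hormones or other metabolites. In Arabidopsis, NRT1.1 carries nitrate at high and low concentrations and also acts as a nitrate sensor, while NRT1.2 is a constitutive low-affinity carrier that also imports abscisic acid. NRT2 proteins belong to a separate family of high-affinity nitrate carriers, and Arabidopsis NRT2.1 works in the root together with a small partner protein of the NRT3 family. Carriers of these families take nitrate up from the soil and move it between root and shoot, and the genes of many of them respond to nitrate itself.

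The organs matched their labels. The summed level of 10 photosynthesis genes was 12286 to 13323 CPM in shoots +N and 5259 to 5925 CPM in shoots −N, against 32.6 to 39.5 CPM in roots +N and 22.2 to 24.8 CPM in roots −N. The summed level of 15 endodermal and root-hair genes was 3.12 to 3.94 CPM in shoots +N and 3.16 to 5.02 CPM in shoots −N, against 271.7 to 287.7 CPM in roots +N and 75.1 to 104 CPM in roots −N. In shoots +N 7 of these 15 had no count, in shoots −N 5 and in roots +N 1. Each marker sum was therefore higher in +N than in −N within its own organ. Of the 15 root genes 14 rose with nitrate in roots, while CASP1 (*Solyc02g067190.4*), which encodes a protein of the endodermal Casparian strip, had no read in roots +N against 116 reads in roots −N. The marker levels thus moved with the treatment, and their part in the results below was not tested.

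All 4 transporter genes were up-regulated by nitrate in both organs, and they differed in where they were expressed. The root rise of NPF4.4 lay at the 2-fold limit, and not every way of processing the data called it. NPF4.6 and the NRT2 gene were higher in roots than in shoots, NPF4.4 was higher in shoots, and NIT2 was higher in roots with nitrate, while without nitrate no organ difference of it was detectable. The study had named NIT2 and NPF4.6 as up-regulated in roots, and NPF4.6 and the NRT2 gene in shoots, from the same libraries. NPF4.4 was labelled in a drawing of the study, and all 4 were chosen with earlier results of these data known. Their count is therefore not independent evidence.

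NIT2, the gene matched to the nitrate carrier and sensor NRT1.1, was nearly silent without nitrate. In shoots it had 29, 27 and 28 reads in the +N libraries (1.71, 1.42 and 1.71 CPM), against 5, 4 and 5 reads in the −N libraries (0.238, 0.178 and 0.222 CPM). In roots it had 247, 147 and 138 reads in +N (13.1, 8.19 and 8.07 CPM), against 4, 0 and 3 reads in −N (0.205, 0 and 0.147 CPM). In either organ the treatments were fully separated, and the +N roots were the only libraries with more than 29 reads of it, with the first replicate above the others.

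The change of NIT2 in shoots was 2.97 on the log2 scale (SE of the fit 0.42, edgeR adjusted p = 4.08e-06), and in roots it was 6.37 (SE 0.41, edgeR adjusted p = 4.06e-09), the 24th largest rise of 21049 genes tested in roots. The root value rests on 7 reads in the −N libraries. The ratio of the pooled reads there, scaled for depth, was 87.9, with 95% counting limits of 42.4 and 220, and the log2 value was 7.0 without −N replicate 1 and 5.75 without −N replicate 2. In the edgeR fit of all 12 libraries, whose scaling differs slightly from that of the fits per organ, NIT2 was the one member whose change differed between the organs, by −3.48 on the log2 scale for shoots minus roots (SE 0.80, edgeR adjusted p = 9.92e-04).

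NPF4.6, matched to the low-affinity nitrate and abscisic acid carrier NRT1.2, was expressed in every library. It had 35.5, 37.4 and 35.8 CPM in shoots +N, against 11.02, 11.7 and 9.69 CPM in shoots −N. In roots it had 151, 143 and 152 CPM in +N, against 47.7, 47.4 and 50.4 CPM in −N. The 4 groups were fully separated, and starved roots stood above nitrate-supplied shoots, by a ratio of means of 1.34.

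NPF4.6 rose by 1.84 on the log2 scale in shoots (SE 0.091, edgeR adjusted p = 1.12e-12) and by 1.61 in roots (SE 0.053, edgeR adjusted p = 2.44e-12). These correspond to 3.58-fold and 3.06-fold. The difference between the organs was 0.13 on the log2 scale (SE 0.095, edgeR adjusted p = 0.266), which does not show that the changes were equal.

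NPF4.4, by its name a gene of the same NPF4 branch, had the opposite organ preference. It had 35.7, 33.3 and 36.5 CPM in shoots +N, against 14.8, 13.7 and 14.98 CPM in shoots −N. In roots it had 13.5, 13.2 and 14.2 CPM in +N, against 6.40, 7.08 and 6.78 CPM in −N. Shoots +N were highest and roots −N lowest, and the groups in between, shoots −N and roots +N, overlapped.

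NPF4.4 rose by 1.37 on the log2 scale in shoots (SE 0.083, edgeR adjusted p = 2.70e-11). In roots the change was 1.01 (SE 0.11, edgeR adjusted p = 1.51e-06), a fold of 2.01 that lay at the 2-fold limit used for a call. The root change was 0.97 without −N replicate 1, 0.98 without +N replicate 3 and 0.84 with scaling by total reads, so that the gene was then no longer called although its adjusted p stayed below the limit. The difference between organs was 0.27 (SE 0.13, edgeR adjusted p = 0.0945), and over the alternatives its adjusted p ran between 0.0309 with DESeq2 size factors and 0.199.

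The NRT2 gene *Solyc06g074990.3* was almost confined to roots in these libraries. In roots it had 598, 622 and 663 CPM in +N, against 42.8, 66.9 and 47.4 CPM in −N, the second −N replicate being the highest of the 3. In shoots it had 47, 33 and 31 reads in +N (2.77, 1.74 and 1.89 CPM), against 3, 0 and 0 reads in −N. The groups did not overlap in either organ, and all the reads in starved shoots came from 1 library.

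The NRT2 gene took 0.0616% of all counted reads in roots +N, against 0.00576% in roots −N, a change of 3.58 on the log2 scale (SE 0.12, edgeR adjusted p = 2.39e-12). In shoots the pooled reads were 111 in +N against 3 in −N, a depth-scaled ratio of 46.6 (95% counting interval 15.5 to 229), and the gene passed the test with an edgeR adjusted p of 2.97e-07. The fitted shoot change was 5.45 on the log2 scale with all libraries and 8.42 without the starved shoot library that held the reads. The difference between the organs was 1.78 (SE 1.02, edgeR adjusted p = 0.162), and over the alternatives its adjusted p ran between 0.0465 with DESeq2 and 0.397.

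**Figure D1:**
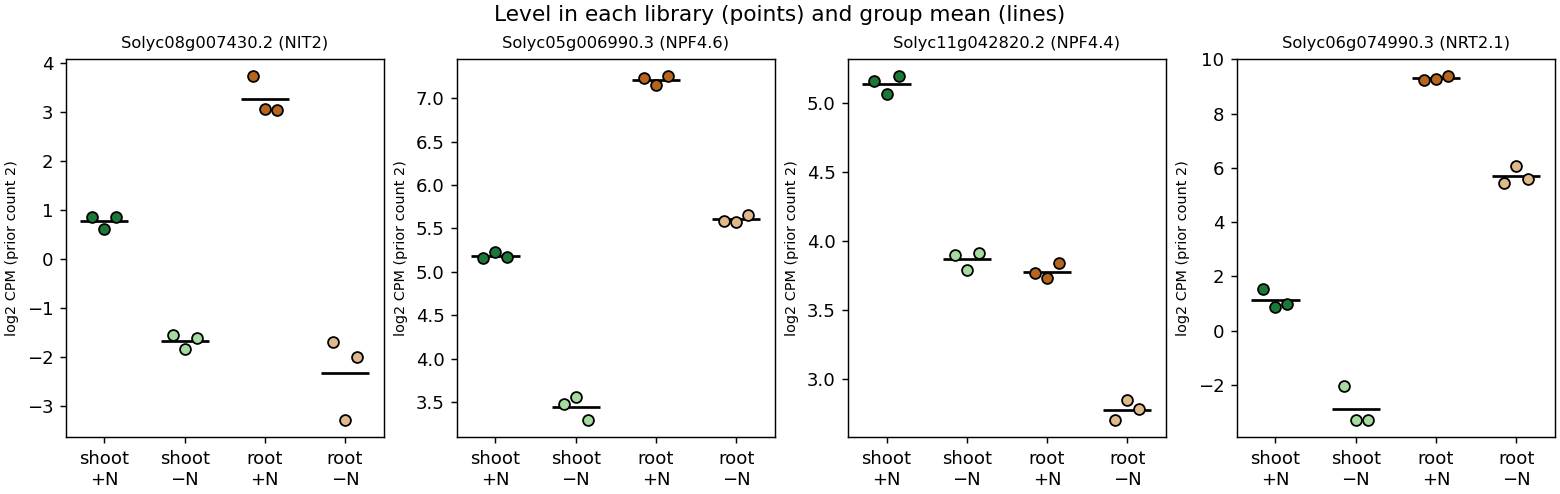
Level of each transporter gene as log2 CPM with a prior count of 2 (vertical axes, a different range in each panel), with shoots +N, shoots −N, roots +N and roots −N from left to right. Points are single libraries, with 3 in each group, and lines are group means. Every +N point lies above every −N point of its organ, and the highest group is roots +N except for NPF4.4, where it is shoots +N.

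All 4 genes passed the test in shoots (adjusted p below 0.015 and more than 2-fold), where 13.4% of the 20689 genes tested were up-regulated, and all 4 passed it in roots, where 6.23% of the 21049 genes tested were. Complete separation of the +N above the −N libraries is common here, being met by 36.1% of the genes tested in shoots and 32.0% in roots, so it does not set the members apart. The median log2 change of the 4 genes was 2.41 in shoots and 2.60 in roots, beside medians of −0.01 and −0.01 over all genes tested. The study had named NIT2, NPF4.6 and the NRT2 gene as up-regulated in at least 1 organ from these libraries. All 4 were chosen with earlier results of these data known, so their calls and medians are not independent evidence. In the test of the difference between organs, 1 of the 4 changed less in shoots, in a background where 25.5% of 22483 genes did so and 22.9% changed more in shoots. An exact permutation test of 3 against 3 libraries cannot go below p = 0.10, so every p given is from the fit over all genes.

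The organ comparison within each treatment set the genes apart. With nitrate, 1 of the 4 was higher in shoots (22.8% of all genes tested) and 3 were lower in shoots (22.0%). Under starvation, 1 of the 4 was higher in shoots (19.8%) and 2 were lower (18.1%). The share of members higher in shoots is close to the background and the share lower in shoots is above it in both treatments, but with 4 genes nothing is read from either.

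For the NPF4 genes the organ difference had the same sign in both treatments. NPF4.6 differed by −2.03 in +N (SE 0.062, edgeR adjusted p = 4.67e-18) and by −2.17 in −N (SE 0.072, edgeR adjusted p = 2.34e-17), for shoots minus roots on the log2 scale. NPF4.4 differed by 1.37 in +N (SE 0.086, edgeR adjusted p = 1.99e-12) and by 1.1 in −N (SE 0.096, edgeR adjusted p = 7.88e-10).

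NIT2 and the NRT2 gene had few reads in at least 1 of the groups compared. NIT2 differed by −2.60 in +N (SE 0.26, edgeR adjusted p = 8.30e-09), whereas in −N it had 14 reads in shoots against 7 in roots, a difference of 0.88 that did not pass the test (SE 0.73, edgeR adjusted p = 0.284). The counting interval of that −N ratio was 0.714 to 5.54, so an organ difference of NIT2 in −N was not detectable at this depth. The NRT2 gene differed by −8.20 in +N (SE 0.17, edgeR adjusted p = 4.40e-21), and in −N the depth-scaled ratio of 3 shoot reads to 3304 root reads was 0.000858, with counting limits of 0.000177 and 0.00251.

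**Figure D2:**
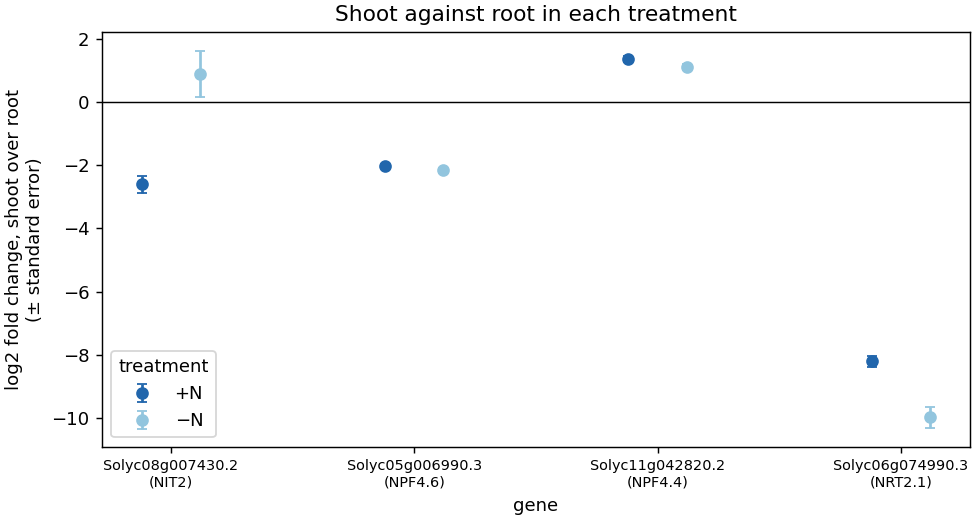
Log2 fold change of shoots over roots (vertical axis) for each transporter gene (horizontal axis) in +N (dark) and −N (light), with the SE of the fit as bars. NPF4.4 lies above zero at 1.37 and 1.1, NPF4.6 below zero at −2.03 and −2.17, the NRT2 gene far below zero, and NIT2 on either side of it at −2.60 in +N and 0.88 in −N. The NRT2 value in −N rests on 3 shoot reads.

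The ratio of reads of NPF4.6 to NPF4.4 within a library does not depend on how libraries were scaled. It was 0.997, 1.12 and 0.982 in shoots +N and 0.743, 0.854 and 0.647 in shoots −N. In roots it was 11.2, 10.8 and 10.7 in +N and 7.46, 6.70 and 7.43 in −N. The ratio was thus higher in every root library than in every shoot library, and higher in every +N than in every −N library of the same organ. Because the ratio carries the lengths of both transcripts, only its change between groups can be read. It was chosen after the values were seen, and its organ difference follows from the opposite organ preferences given above.

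The other genes matched to the same Arabidopsis gene as NIT2 were not called as up-regulated by nitrate. NIT1 (*Solyc08g078950.3*), which has the same closest Arabidopsis match as NIT2, had 124, 128 and 133 CPM in shoots +N, against 170, 178 and 174 CPM in shoots −N, and 537, 524 and 508 CPM in roots +N, against 511, 455 and 500 CPM in roots −N. Its log2 change was −0.35 in shoots (SE 0.050, edgeR adjusted p = 5.38e-06, below the 2-fold limit) and 0.10 in roots (SE 0.050, edgeR adjusted p = 0.108), where it was −0.07 with scaling by total reads. A further gene with that match, *Solyc06g060620.4*, changed by −0.73 in shoots (SE 0.075, edgeR adjusted p = 5.03e-08) and by −0.62 in roots (SE 0.092, edgeR adjusted p = 3.59e-05), again within the 2-fold limit, although with scaling by total reads the shoot change was −1.03 and was called. Of the 3 genes with this match, NIT2 was thus the one called as up-regulated in either organ.

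The reads of NIT2 relative to those of NIT1 show the same contrast without library scaling. In shoots the ratio was 0.0137, 0.0111 and 0.0129 in +N, against 0.00140, 0.0010 and 0.00128 in −N. In roots it was 0.0244, 0.0156 and 0.0159 in +N, against 0.000401, 0 and 0.000295 in −N. The groups did not overlap, and the ratio was higher with nitrate in all libraries of both organs. As NIT1 changed little beside NIT2, the ratio follows the rise of NIT2 and is no further evidence for it. This ratio, too, was chosen after the values were seen.

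Within the NPF4 branch the direction also differed. *Solyc01g103030.3*, matched to Arabidopsis NPF4.3, was lower with nitrate in both organs, at 11.9 ± 1.09 CPM in shoots +N against 26.9 ± 4.10 CPM in shoots −N, and at 8.21 ± 0.67 CPM in roots +N against 21.1 ± 3.11 CPM in roots −N (SD, n = 3). The log2 change was −1.08 in shoots (SE 0.12, edgeR adjusted p = 1.1e-07) and −1.36 in roots (SE 0.12, edgeR adjusted p = 1.37e-07). *Solyc04g079510.2*, matched to NPF4.5, had 1, 4 and 2 reads in roots +N, against 241, 268 and 255 reads in roots −N, a change of −6.49 (SE 0.27, edgeR adjusted p = 2.84e-11). In shoots it had 4, 0 and 1 reads in +N and none in −N, too few to test. Both of these genes come from the study's tables of genes lowered by nitrate in roots, so their root direction was fixed by that choice.

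The read ratio of NPF4.6 to *Solyc01g103030.3* put the opposite directions into a single measure. In shoots it was 3.0, 2.87 and 3.29 in +N, against 0.359, 0.424 and 0.430 in −N. In roots it was 18.1, 16.2 and 20.4 in +N, against 1.93, 2.44 and 2.62 in −N. The +N libraries lay above the −N libraries in both organs, without overlap. Since NPF4.6 rose and the other gene fell in both organs, this separation was fixed beforehand and is no further evidence. The ratio was chosen after the values were seen.

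Relatives and partners of the NRT2 gene were read in the same way. *Solyc11g069735.1*, an NRT2 gene with the same Arabidopsis match, had 361, 384 and 384 CPM in roots +N, against 121, 135 and 139 CPM in roots −N, a change of 1.51 (SE 0.056, edgeR adjusted p = 9.01e-12), and in shoots it had no read in +N and 3 in −N. *Solyc03g112100.3*, an NRT3 gene of the family of NRT2 partner proteins, had 1058, 1087 and 1140 CPM in roots +N, against 369, 425 and 351 CPM in roots −N, a change of 1.52 (SE 0.062, edgeR adjusted p = 2.58e-11). In shoots its change was 0.17 (SE 0.12, edgeR adjusted p = 0.244), and −0.13 with scaling by total reads. The other NRT3 gene, *Solyc03g112090.3*, had 7, 9 and 2 reads in shoots +N against 73, 82 and 83 in shoots −N, a change of −3.28 (SE 0.35, edgeR adjusted p = 8.19e-08), and 11 reads in roots +N against 20 in roots −N, too few to test.

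**Figure D3:**
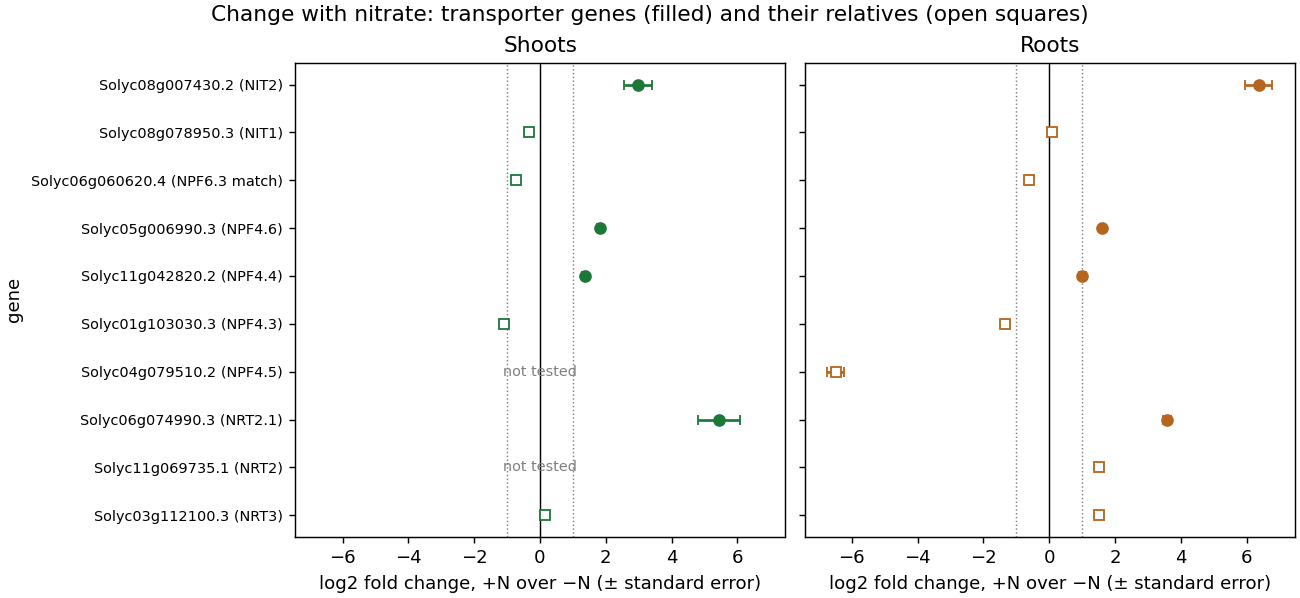
Log2 fold change of +N over −N (horizontal axis) in shoots (left) and roots (right), with the SE of the fit as bars, for the 4 transporter genes (filled circles) and 6 genes related by annotation (open squares). Dotted lines mark 2-fold. The filled circles all lie right of zero, NIT1 lies at −0.35 in shoots and 0.10 in roots, and the NPF4.3 and NPF4.5 genes lie left of zero where tested.

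The wider NPF family was read through the genes that the study's held supplementary tables describe, which are incomplete, so the counts are not a census. Of 14 NPF genes in the histone modification tables, 12 had enough reads in shoots and 10 in roots. None rose and 4 fell in shoots, where 7.62% of all genes tested were down-regulated, and none rose and 4 fell in roots, where 6.38% were. Before adjustment, 0 were higher in shoots and 1 in roots at p below 0.05, and DESeq2 called 0 higher in either organ. Their median log2 change was −0.61 in shoots and −0.79 in roots. All 4 that fell in roots are also in the study's table of genes lowered in roots, and of the 10 that are not, 6 were tested in roots and none was called by edgeR or DESeq2 (1 higher and 3 lower at an unadjusted p below 0.05), although 1 was called lower by edgeR with scaling by total reads, while 1 of 8 tested in shoots fell.

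The table of differential expression in roots gave 19 further NPF genes, of which 18 fell and 1 rose in roots, a split fixed by that choice. In shoots 16 were tested, 7 fell (7.62% of all genes tested did), none rose (13.4% did) and 9 did not pass, with a median log2 change of −0.95. Shoot values did not enter the choice. Whether the changes of these genes in the 2 organs are related was not tested, so the shoot counts cannot be taken as independent of the choice by roots. At an unadjusted p below 0.05, 3 were higher in shoots, and DESeq2 called 0 higher. The largest falls in shoots were those of *Solyc12g095810.2*, annotated as NPF1.1, at 1.2 ± 0.11 CPM in +N against 6.59 ± 0.23 CPM in −N (SD, n = 3; log2 change −2.36, SE 0.20, edgeR adjusted p = 4.35e-09), and of *Solyc05g005910.4*, annotated as NPF1.2, with a log2 change of −1.97 (SE 0.35, edgeR adjusted p = 6.66e-05).

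In roots the single rise was that of *Solyc01g091180.4*, annotated as NPF7.3. Arabidopsis NPF7.3, or NRT1.5, loads nitrate into the xylem. The gene had 4.51, 5.29 and 4.79 CPM in roots +N, against 1.38, 1.42 and 1.18 CPM in roots −N, a log2 change of 1.86 (SE 0.21, edgeR adjusted p = 1.92e-06). In shoots its change was 0.44 (SE 0.31, edgeR adjusted p = 0.225). Another gene annotated as NPF7.3, *Solyc08g077170.3*, had 1 read in roots +N against 70 in roots −N, a depth-scaled ratio of 0.0165 with counting limits of 0.000413 and 0.0951, and in shoots a change of −0.07 (SE 0.21, edgeR adjusted p = 0.794). After *Solyc04g079510.2*, this was the largest fall in roots among the listed NPF genes. The remaining gene annotated as NPF7.3, *Solyc08g007060.4*, had 36.7, 56.8 and 36.7 CPM in roots +N, against 79.9, 90.6 and 94.5 CPM in roots −N, a log2 change of −1.03 (SE 0.13, edgeR adjusted p = 5.0e-06), and in shoots its change was 0.16 (SE 0.087, edgeR adjusted p = 0.101). The root change was −0.98 without −N replicate 3, −0.92 without +N replicate 1 and −0.92 without +N replicate 3, where it was within 2-fold and no longer called.

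Of 7 other genes of nitrate transport and reduction, 5 were tested in shoots and 6 in roots. In shoots 3 rose and 1 fell, where 13.4% of all genes tested were up-regulated and 7.62% down-regulated. In roots all 6 tested rose, where 6.23% were up-regulated. The study had named the nitrate and nitrite reductases in both organs, and *Solyc11g069735.1* and *Solyc11g069760.1* in roots, as up-regulated from the same libraries. Those directions were therefore fixed by the choice of genes. The 3 that rose in both organs encode the assimilating enzymes, nitrate reductase (*Solyc11g013810.3*, log2 change 3.88 in shoots and 3.49 in roots) and 2 nitrite reductases (*Solyc01g108630.3*, 4.84 in shoots and 6.57 in roots, and *Solyc10g050890.2*, 3.02 in shoots and 5.88 in roots). Adjusted p was at most 9.83e-18 for these 3 genes in shoots in the edgeR fit. The remaining NRT2 gene, *Solyc11g069760.1*, had 83, 64 and 49 reads in roots +N and none in roots −N.

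**Figure D4:**
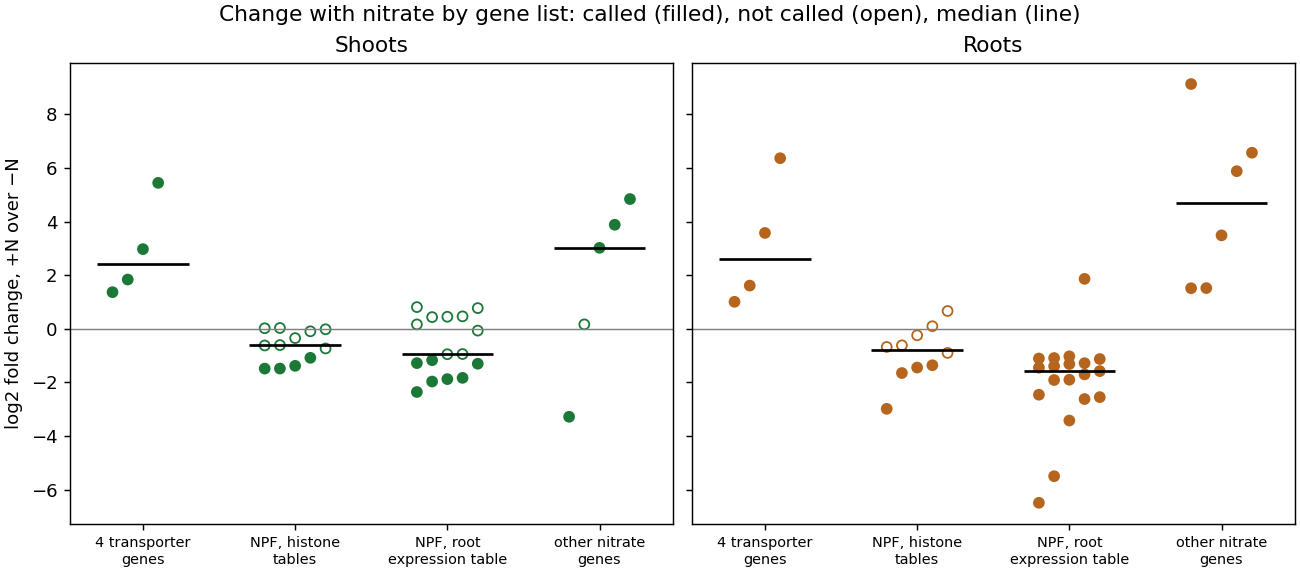
Log2 fold change of +N over −N (vertical axis) in shoots (left) and roots (right) for the 4 transporter genes, the 2 NPF lists and the other nitrate genes, each point being 1 gene tested. Filled points passed the test, open points did not, and lines are medians. The transporter genes have medians of 2.41 in shoots and 2.60 in roots, and the NPF lists lie mostly below zero, with the root expression list chosen by its change in roots. The transporter genes and the other nitrate genes were also chosen with earlier results of these data known. The highest point in roots is a gene with no read in roots −N, so its fitted value depends on the prior count.

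Genes with the most similar pattern were found by comparing each member with 22482 other genes over the 4 group means of log2 CPM, each gene centred on its own mean, and by taking the smallest root mean square difference. For NIT2 the nearest were *Solyc07g043170.4* at 0.23, annotated as a glycosyltransferase, *Solyc05g009720.3* at 0.47, a Myb-like transcription factor, and *Solyc03g080070.4* at 0.52, a WAT1-related protein. The last of them had at most 2 reads in each −N library. Only 2 genes lay within 0.5 of NIT2, and the nearest of the other nitrate genes was the nitrite reductase *Solyc10g050890.2*, at 0.70 and rank 10.

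The NPF4 patterns had closer neighbours. Those of NPF4.6 were *Solyc09g009020.3* at 0.12, annotated as enolase, *Solyc01g102410.3* at 0.13, a glutamine-tRNA ligase, and *Solyc04g008070.3* at 0.16, a cyclin with at most 37 reads in a library. The neighbours of NPF4.4 were *Solyc07g026740.1* at 0.05 and *Solyc11g062250.2* at 0.07, for which no description was found in the tables used here, and *Solyc04g008050.4* at 0.07, a two-component response regulator. *Solyc07g026740.1* had 5, 11 and 3 reads in roots −N and at most 34 in a library, so its distance is imprecise. Within 0.5 there were 90 genes for NPF4.6 and 1461 genes for NPF4.4, whose centred group means ran from −1.11 to 1.25. The measure is not scaled to the size of a gene's changes, so these numbers do not show how common a pattern was.

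The NRT2 gene, whose centred group means ran from −6.18 to 5.98, had no neighbour within 0.5. The nearest were *Solyc07g008240.3* at 0.91, a non-symbiotic haemoglobin, *Solyc03g095780.3* at 1.18, annotated as an abscisic acid receptor of the PYL4 type, and *Solyc02g085910.4* at 1.25, a LOB domain protein. The haemoglobin gene had 35.7, 37.9 and 38.4 CPM in shoots +N, against 1.19, 1.07 and 2.22 CPM in shoots −N, and 1890, 1877 and 2065 CPM in roots +N, against 381, 424 and 430 CPM in roots −N. The ranking describes 4 group means and has no test.

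**Figure D5:**
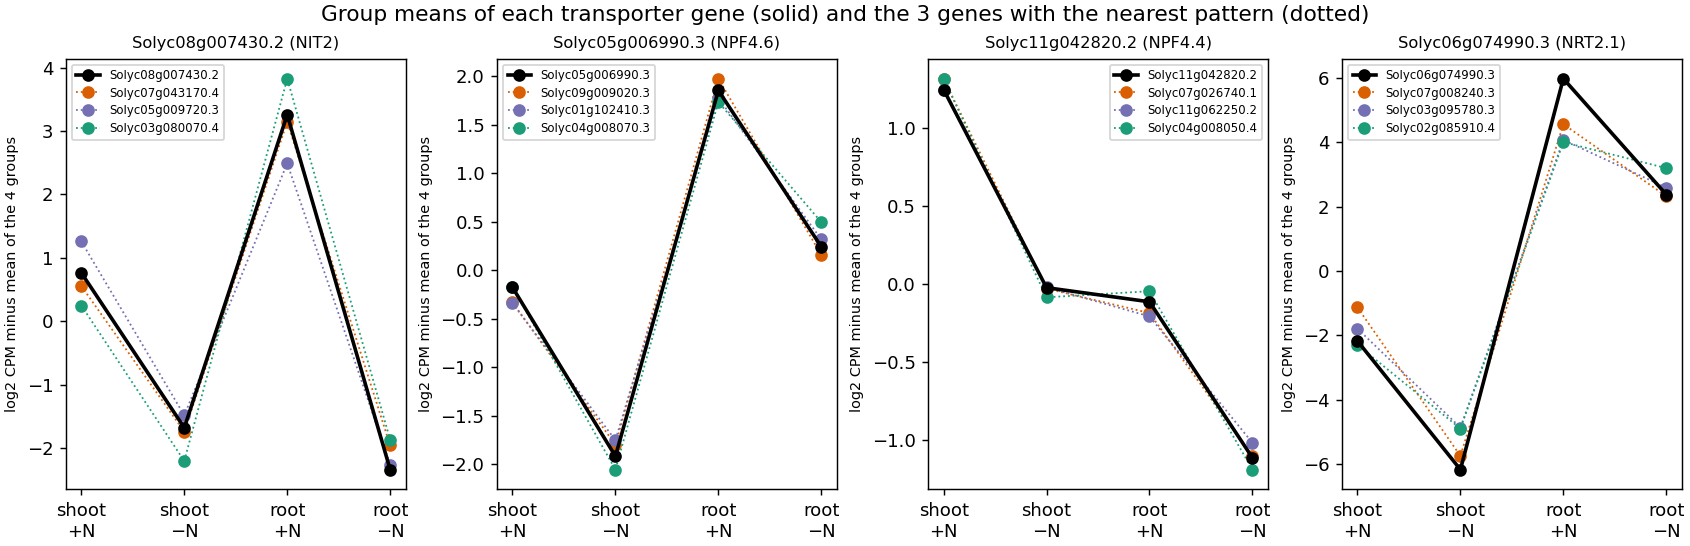
Group means of log2 CPM, minus the mean of the 4 groups (vertical axes), for each transporter gene (solid black) and its 3 nearest genes (dotted), with shoots +N, shoots −N, roots +N and roots −N from left to right. The neighbours of NPF4.4 run within 0.07 of it as a root mean square difference, and those of the NRT2 gene are 0.91 to 1.25 away.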

How the data were processed

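RNA was measured in 12 libraries, with 3 replicates for each of 2 organs and 2 treatments. Raw read counts per gene were deposited by the authors, after trimming (Cutadapt), mapping to tomato genome build 4.0 (TopHat2) and counting (HTSeq). How strand and multi-mapped reads were handled was not given in any source used here, so reads shared with paralogs or antisense transcripts cannot be told apart. Column names gave each library's sample. Chromatin libraries of the series were not used.

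Each organ was fitted with edgeR 4.0.16 (R 4.3.3), with filterByExpr (minimum count 10), TMM scaling and the quasi-likelihood test of +N against −N, and Benjamini-Hochberg adjustment over all genes tested. A call needed adjusted p below 0.015 and 2-fold. The interaction (called at 0.05) and the organ comparisons came from a fit of all 12 libraries. Standard errors are the log2 change divided by the root of the F statistic. CPM used TMM factors over 12 libraries. Intervals of pooled reads are exact binomial, at 95%, and cover counting error only. Alternatives were DESeq2 1.42.0, other scalings, filters and thresholds, a replicate block and leaving out each library. The procedure was tested on simulated data.

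The members and lists were chosen with earlier results of these data known. Genes named are the members, listed genes matched to the same Arabidopsis gene or to NPF4, the NRT3 genes, the 2 largest rises and falls among NPF genes in each organ whose +N and −N libraries do not overlap, and the 3 nearest patterns; no listed NPF gene rose in shoots. The nitrate and nitrite reductases, *Solyc11g069760.1*, *Solyc08g007060.4*, *Solyc02g067190.4* and the within-library read ratios were added after their values were seen. No sequence is shown.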

Additional observations from a re-analysis of the deposited data

Results flagged for a closer look

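For 18 of the genes named the change with nitrate differed between the organs in the edgeR interaction test, as shoots minus roots on the log2 scale. Among the members this was NIT2 (*Solyc08g007430.2*) at −3.48 (adjusted p = 9.92e-04). Among its relatives NIT1 (*Solyc08g078950.3*) differed by −0.54 (adjusted p = 1.56e-06). Of the 3 NPF7.3 genes, *Solyc01g091180.4* differed by −1.52 (adjusted p = 0.00201), and in the opposite direction *Solyc08g007060.4* by 1.1 (adjusted p = 1.96e-05) and *Solyc08g077170.3* by 5.35 (adjusted p = 6.89e-06), the last with 1 read in roots +N. The NRT3 genes differed by −2.73 (*Solyc03g112090.3*, adjusted p = 0.00475) and −1.45 (*Solyc03g112100.3*, adjusted p = 2.88e-09). Of these, *Solyc03g112090.3* had only 11 reads in roots +N and 20 in roots −N, too few for the test within roots. The NPF4.5 gene *Solyc04g079510.2* differed by 10.49 (adjusted p = 3.67e-05) and the NRT2 gene *Solyc11g069735.1* by −4.54 (adjusted p = 0.0283), and both rest on shoot groups without a read. The NRT2 gene *Solyc11g069760.1* differed by −8.90 (adjusted p = 0.0243) and had no read in roots −N. These 3 fitted sizes depend on the prior count and are no bound. The nitrite reductases differed by −1.82 (*Solyc01g108630.3*, adjusted p = 9.17e-10) and −2.95 (*Solyc10g050890.2*, adjusted p = 5.61e-16). Among the 12 genes chosen for a pattern like that of a member 6 differed, *Solyc07g043170.4* by −2.82, *Solyc05g009720.3* by −2.06, *Solyc09g009020.3* by −0.35, *Solyc07g008240.3* by 2.39, *Solyc03g095780.3* by 1.78 and *Solyc02g085910.4* by 2.11 (edgeR adjusted p at most 6.35e-04). Over all genes tested, 22.9% changed more and 25.5% changed less in shoots by this test. Such a difference was thus common, and nothing about the named genes or the neighbours is read from how many showed it.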

How the results depend on the processing

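The members called in shoots numbered 4 under all 15 alternatives, and those in roots 3 to 4 under 15, the gene lost being NPF4.4. Members whose change differed between organs numbered 1 in the main analysis, 2 with DESeq2 size factors and 3 with DESeq2, and 1 in each leave-one-out fit. With glmTreat against 2-fold, NPF4.4 was not called in roots (adjusted p = 1, against at most 2.06e-05 under the other alternatives) or between organs in −N (adjusted p = 0.153, against at most 1.15e-08), and 10 rather than 18 NPF genes of the root expression table were lowered in roots. NIT2 kept its sign throughout, from 5.75 to 7.0 in roots and 2.68 to 3.06 in shoots. Scaling by total reads moved the median change of all genes to −0.30 in shoots and −0.18 in roots.

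Replicate numbers were shared across groups, but no correlation of the deviations of same-numbered libraries was over 0.1 (−0.0324 to −0.00673 between treatments in shoots, −0.00797 to −0.00347 in roots, and between organs 0.00179 to 0.0152 in +N and −0.00872 to 0.0514 in −N), and not every library correlated best with its own number. With a replicate block, 4 members were called in shoots, 4 in roots and 1 in the interaction, as without it.

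Depth limits the groups with few reads, NIT2 in −N and the NRT2 gene in shoots. With 3 libraries a group, a missing call does not show that a gene kept its level.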
